A study of Mus musculus with 4 samples.

Results

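The genes of the insulin-like growth factor (IGF) system were examined in cultured mouse muscle stem cells (MuSCs) that had or had not been given the growth factor BMP6 for 1 h. The 10 genes were taken by name from the deposited expression table, which has 55267 entries: the ligands Igf1 and Igf2, the receptors Igf1r and Igf2r, and the binding proteins Igfbp2, Igfbp3, Igfbp4, Igfbp5, Igfbp6 and Igfbp7. Each name matched 1 entry, and all 10 entries reached the mean of 1 TPM needed for testing. TPM is scaled by transcript length and by library total, so different genes can be set side by side. The cells came from skeletal muscle of female C57BL/6N(Tg(Pax7-EGFP)Tajb) mice at 9 weeks of age, in which the Pax7 gene region drives green fluorescent protein, and were sorted for that fluorescence after a day in culture. After further culture at 3% oxygen, every dish was kept without serum for 6 h in the presence of 200 ng/mL BMPR-1A-Fc, a soluble receptor fragment that binds BMPs. The BMP6 group (2 libraries) then received 100 ng/mL BMP6, and the control group (2 libraries) received the vehicle, 4 mM HCl with 0.1% BSA. Biological replicate numbers 1 and 2 recur in both groups, and the labels list them as a batch.

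IGF1 and IGF2 are secreted peptides that act through the tyrosine kinase receptor encoded by Igf1r. The product of Igf2r carries IGF2 to the lysosome for degradation and also sorts enzymes that bear mannose 6-phosphate. The binding proteins hold IGFs in the extracellular space, where they can prolong, block or hand on the signal, and Igfbp7 encodes a related protein with low affinity for IGFs. In muscle, IGF signalling is known for growth of fibres and for proliferation and differentiation of myoblasts, and Igf2 and Igfbp5 are known as genes that rise when myoblasts differentiate.

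The libraries were of even size, with 108000000 to 112000000 reads recalculated from the deposited coverage and 13002 to 13203 entries at 1 TPM or more. The treatment was seen in the known BMP targets: of 5 such genes, 4 passed an adjusted p under 0.1 and rose (limma, Benjamini-Hochberg over 13128 entries), among them Id1 and Id3, encoding inhibitors of myogenic transcription factors, with log2 differences of 2.33 (adjusted p = 0.016) and 2.46 (adjusted p = 0.010). Smad6, an inhibitor of BMP signalling, had a log2 difference of 2.23 with an adjusted p of 0.270. The cells carried markers of both committed progenitors and differentiation: Pax7 lay at 8.29 to 11.7 TPM, Myod1 at 536 to 631 TPM and Myog, the transcription factor of differentiating myoblasts, at 4400 to 5472 TPM, and none of the 6 progenitor and 6 differentiation genes listed passed the test. Of the other cell types, the 4 endothelial genes summed to at most 0.298 TPM with Kdr at 0 in all libraries, and the Schwann cell gene Sox10 lay at no more than 0.115 TPM. The 4 immune genes summed to 1.44 to 1.98 TPM with Ptprc at 0.0062 TPM or less, and the 4 pericyte or smooth muscle genes to 7.04 to 9.44 TPM. In the fibroblast list, the 3 collagen genes lay between 34.3 and 240.2 TPM, while Pdgfra and Lum did not exceed 0.270 TPM. In these bulk samples, fewer cells of a type and less RNA per cell cannot be told apart.

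Taken by whole-gene TPM, the system was dominated by 1 ligand and 4 binding proteins. Igf2 had the highest mean, 155 TPM over the 4 libraries, followed by Igfbp3 (133 TPM), Igfbp2 (114 TPM), Igfbp5 (106 TPM) and Igfbp7 (72.3 TPM). Then came Igfbp6 (26.8 TPM), Igf1 (11.2 TPM), Igf2r (9.08 TPM), Igfbp4 (2.41 TPM) and Igf1r (1.70 TPM). The first 3 steps of this order, from Igf2 down to Igfbp5, were not larger than the spread over libraries: Igfbp3 and Igfbp2 each exceeded the other in 2 of 4 libraries, as did Igfbp2 and Igfbp5. Igf2 was above Igfbp3 in every library, but their ranges overlapped. From Igfbp5 downwards, each of the 6 neighbouring pairs was separated in all 4 libraries without overlap of ranges. The step from Igfbp5 to Igfbp7 was narrow, with 91.6 TPM as the lowest Igfbp5 value and 91.5 TPM as the highest of Igfbp7. By coding exons, given below, that step was reversed. Binding protein RNA made up 68.1% to 76.4% of the summed TPM of the 10 genes. That share holds for whole-gene TPM only and was not recalculated from coding exons. By coverage of coding exons, given below, Igf2 had a mean of 625 and the highest binding protein, Igfbp2, 158.

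**Figure D1:**
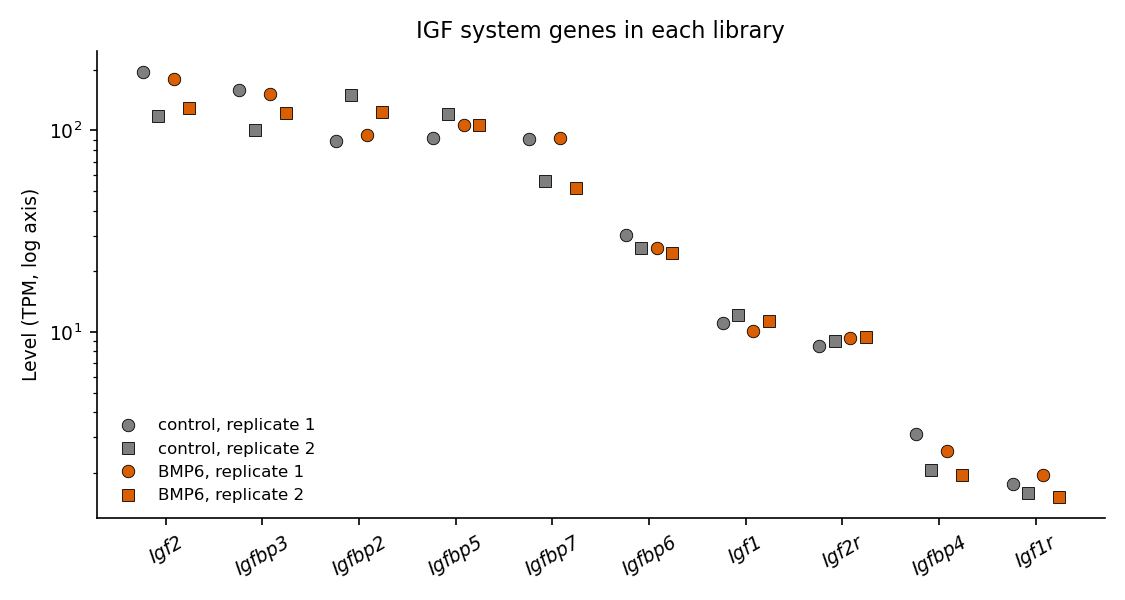
Level of each IGF system gene in TPM (log axis) in each of the 4 libraries, with genes in order of their mean. Grey marks control and orange marks BMP6, with circles for replicate 1 and squares for replicate 2. Symbols of the same shape lie close together for Igf2, Igfbp3, Igfbp2 and Igfbp7, and the spread within a gene is at most 1.77-fold from lowest to highest library.

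Igf1 encodes the ligand that mediates much of the action of growth hormone and is also made locally in muscle. Its level was 11.05 TPM in control replicate 1 and 12.2 TPM in control replicate 2, against 10.1 and 11.3 TPM in the BMP6 libraries. In both replicate pairs the BMP6 library was the lower, but the groups overlapped, and the log2 difference of -0.11 (SE 0.13) did not pass the test (limma, adjusted p = 1.00). The gene lies on chromosome 10, plus strand, from 87694127 to 87772904 (GRCm39), and no other entry shares its exons.

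The deposited annotation holds 7 Igf1 transcripts, which differ in the leader and in the end of the coding region. In rodents, skipping or inclusion of a short exon of 52 bases (chr10:87751160-87751211, plus strand) gives precursors with different carboxy-terminal E peptides, named Ea and Eb, while the mature hormone is the same. Because 52 is not a multiple of 3, the bases of the last exon are read in another frame when the exon is included. The coding end of both forms is shown because both forms were covered in every library, with the 15 last bases of the shared exon in front. In the form without the exon, capitals mark the last-exon bases up to and including the stop codon (chr10:87766537-87766596). In the form with it, capitals mark the alternative exon. Both were read from GRCm39 at the coding coordinates of GENCODE.
Igf1 without the exon: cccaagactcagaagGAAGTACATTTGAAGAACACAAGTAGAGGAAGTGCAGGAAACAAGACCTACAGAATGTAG
Igf1 with the exon: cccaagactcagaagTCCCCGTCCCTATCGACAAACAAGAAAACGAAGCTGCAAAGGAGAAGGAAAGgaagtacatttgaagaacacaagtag

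The first form ends after 19 codons beyond the shared exon and the second after 25. Coverage of the 52-base exon was 22.5% and 25.2% of that of the exon before it in the controls, and 21.4% and 27.6% in the BMP6 libraries. The share was thus lower in replicate 1 than in replicate 2 of each group, and the groups overlapped. By the transcript estimates of the deposited assembly, transcripts with the exon spliced to the last exon carried 18.96% to 30.3% of Igf1 TPM, transcripts without it 54.1% to 70.1%, and 1 transcript that ends inside a longer form of it 8.30% to 15.6%. Assignment of reads to transcripts is an estimate of the assembler.

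The 2 leader exons of Igf1 supply different starts of the signal peptide and are shown with the start codon in capitals. The upstream exon contributes 63 coding bases (chr10:87695212-87695274) and the downstream exon 15 coding bases (chr10:87697233-87697247).
Igf1 upstream leader: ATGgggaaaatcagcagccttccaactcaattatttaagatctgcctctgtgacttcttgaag
Igf1 downstream leader: ATGaccgcacctgca

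Transcripts with the upstream leader carried 82.4% to 85.3% of Igf1 TPM in the 4 libraries. The downstream leader accounted for 14.7% to 17.6%. BMP6 and control ranges overlapped. These shares are the assembler's estimates, and no share was calculated from exon coverage. The most covered exon ending in the upstream leader (chr10:87694930-87695274) had 15.2 to 17.8 on the TPM scale. For the downstream leader, the most covered exon (chr10:87695892-87697247) had 0.813 to 1.94. The other exons ending in the upstream leader had 1.21 to 14.8, and those ending in the downstream leader 0.079 to 0.733. In each library the most covered exons of the 2 leaders stood further apart in coverage than the leaders did in the assembler's shares. The share of the downstream leader therefore depends on the measure.

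Igf2 encodes the ligand known best from fetal growth, an imprinted gene expressed from the paternal allele, and was the most abundant gene of the system. It was present at 195 TPM in control replicate 1 and 118 TPM in control replicate 2, and at 179 and 130 TPM in the BMP6 libraries. Replicate 1 was the higher in each group, so that the groups overlapped, and the log2 difference between BMP6 and control was 0.01 (SE 0.26; limma, adjusted p = 1.00). On average over the gene, Igf2 TPM was 9.68 to 17.6 times Igf1 TPM in the individual libraries.

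The Igf2 entry spans chromosome 7, minus strand, from 142204503 to 142223679. It also holds the read-through transcript Gm49394, at no more than 0.0233 TPM, and 1240 of its 6391 exon bases overlap the opposite-strand gene Igf2os, which lay at 0.148 to 0.180 TPM. The libraries do not keep strand, so reads of the overlap cannot be assigned between these. Among the first exons, the one of 109 bases (chr7:142211125-142211233) took 80.1% to 83.1% of the coverage, the one of 374 bases (chr7:142214669-142215042) 12.0% to 15.1%, and the one of 1126 bases (chr7:142212101-142213226) 4.09% to 4.89%. The assembler's transcript estimates were less even: the transcript that starts with the 109-base exon took 83.7% to 89.8% of Igf2 TPM in 3 libraries and 58.8% in BMP6 replicate 2. In that library the 109-base exon still held 80.1% of first-exon coverage. H19, the imprinted noncoding gene next to Igf2 that is expressed from the maternal allele, lay 72617 bases away and reached 410.1 and 558 TPM in the controls against 530.3 and 558 TPM with BMP6.

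Igf1r, the signalling receptor, had the lowest level of the system. Control libraries gave 1.75 and 1.59 TPM, and BMP6 libraries 1.94 and 1.51 TPM. BMP6 was the higher in replicate 1 and the lower in replicate 2, and the log2 difference was 0.03 (SE 0.16). The gene occupies chromosome 7, plus strand, from 67602575 to 67883416, with a single transcript of 21 exons in these files.

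Igf2r was the single gene of the 10 in which both BMP6 libraries lay above both controls. Its level was 8.53 and 9.00 TPM in control against 9.33 and 9.46 TPM with BMP6, a log2 difference of 0.09 (SE 0.12) that did not pass the test (limma, adjusted p = 1.00). Among all tested entries, 16.6% had both BMP6 libraries above both controls and 11.6% had both below, so 1 of 10 above and 0 of 10 below is no more than the background. Igf2r TPM was 4.81 to 6.25 times Igf1r TPM. The gene lies on chromosome 17, minus strand, from 12901293 to 12988551. Airn, the opposite-strand noncoding RNA that silences the paternal Igf2r allele, overlapped the Igf2r locus at 13.9 to 18.8 TPM. Its annotated exons shared no bases with those of Igf2r. As the libraries do not keep strand, any reads of Airn from outside its annotated exons could not be told from Igf2r reads.

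Coverage along Igf2r was far from even. Over the 23 internal exons nearest the 5′ end it was 1.82 to 3.47 on the TPM scale, over the 23 nearest the 3′ end 6.76 to 8.69, and in the last exon 22.9 to 26.9. The small excess in BMP6 did not run through the gene: the 5′ internal exons gave 3.47 and 1.95 in control against 2.53 and 1.82 with BMP6, whereas the last exon gave 22.9 and 25.7 against 26.5 and 26.9. Igf1r coverage also increased along the transcript, from 0.969 to 2.02 over 9 internal exons of the 5′ side to 3.16 to 4.21 over 9 of the 3′ side, but its last exon of 7649 bases had 1.37 to 1.58.

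Among the binding proteins, Igfbp3 encodes the main IGF carrier of serum. It was found at 158 and 101 TPM in the controls and at 151 and 122 TPM with BMP6, again with replicate 1 the higher in each group. The log2 difference was 0.10 (SE 0.22). Igfbp3 lies on chromosome 11, minus strand, from 7156086 to 7163923, and its neighbour Igfbp1, a binding protein known from liver, which lies 3539 bases from it, was listed at 0 in all 4 libraries.

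Igfbp2, the binding protein prominent in the fetus, went the other way between replicates. The controls gave 88.3 and 150.2 TPM and the BMP6 libraries 94.7 and 123 TPM, so replicate 2 was the higher in both groups. The log2 difference between BMP6 and control was -0.09 (SE 0.26). Igfbp2 (chromosome 1, plus strand, 72863662 to 72891633) and Igfbp5 (minus strand, 72897091 to 72914043) lie tail to tail with 5457 bases between them.

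Igfbp5, the binding protein most associated with muscle differentiation, measured 91.6 and 120.0 TPM in control and 107 TPM in each BMP6 library. Both BMP6 values fell between the controls, with a log2 difference of 0.02 (SE 0.14). Igfbp7 lay at 90.0 and 56.0 TPM in control and at 91.5 and 51.7 TPM with BMP6, with a log2 difference of -0.05 (SE 0.32), the largest standard error of the 10. It showed the widest separation of replicates, since replicate 2 had 62.2% of the replicate 1 level in control and 56.5% with BMP6. Igfbp7 (chromosome 5, minus strand, 77497087 to 77555888) shares 85 of its 1209 exon bases with the opposite-strand gene Polr2b, which lay at 46.4 to 58.2 TPM. That count is from the deposited exons. In the search of GENCODE transcripts given below, a longer stretch of 433 bases matched Polr2b at 99.5% identity. The libraries do not keep strand, and the part of Polr2b reads in the Igfbp7 level was not tested.

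Igfbp6, which prefers IGF2 over IGF1, was at 30.1 and 26.1 TPM in control and at 26.2 and 24.7 TPM with BMP6. Its difference on the log2 scale, -0.14 (SE 0.12), was the largest of the 10 genes by TPM. The BMP6 library was the lower in both pairs. The difference did not pass the test (limma, adjusted p = 1.00). The margin over Igfbp4 turned with a pseudocount of 0.1 and under voom. By coding exons, Igfbp5, Igf1, Igfbp4, Igfbp3 and Igfbp2 differed more than Igfbp6. Igfbp4, the lowest of the 6 binding proteins, was at 3.10 and 2.06 TPM in control and at 2.55 and 1.94 TPM with BMP6, a log2 difference of -0.13 (SE 0.20). Igfbp6 lies on chromosome 15, plus strand, from 102052797 to 102057946, and Igfbp4 on chromosome 11, plus strand, from 98932070 to 98945218.

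Whether 1 h of BMP6 changed genes of the system was asked gene by gene, with 1 fit over all entries. No gene of the 10 passed an adjusted p under 0.1 with a fold of at least 2 (limma, Benjamini-Hochberg), against 0.206% of 13128 tested entries, and none passed the adjusted p alone, against 0.244% of entries. None had an unadjusted p under 0.05, the lowest being 0.289 for Igfbp6 (limma). With the shared replicate number as a block, 1.64% of entries passed the adjusted p and again none of the 10 did, with adjusted p from 0.523 to 0.981. Log2 differences ran from -0.14 to 0.10 with a median of -0.02, beside a median of 0.02 over all tested entries.

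The precision behind these nulls differed by gene. The widest 95% interval without the block was that of Igfbp7, from a fold of 0.564 to 1.66, and narrow ones were those of Igfbp6, from 0.745 to 1.11, and Igf2r, from 0.863 to 1.31. With the block, the intervals of the 10 genes lay between log2 -0.42 (Igfbp4) and 0.33 (Igf1r). Groups of 2 libraries allow no permutation p below 0.333.

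**Figure D2:**
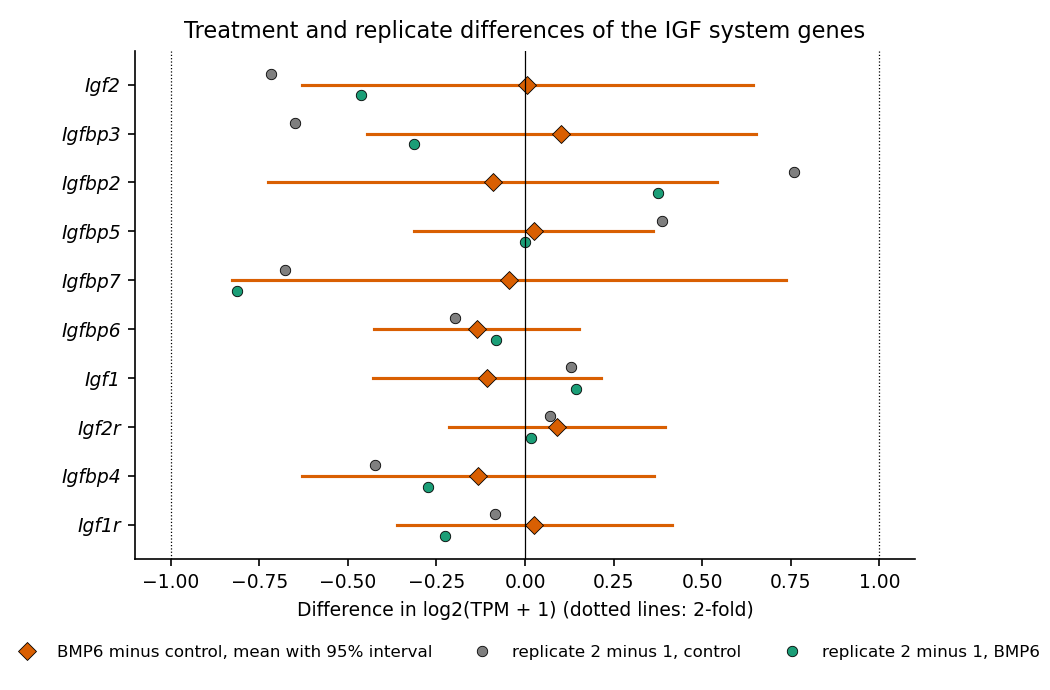
Differences in log2(TPM + 1) for each IGF system gene: BMP6 minus control as a diamond with its 95% interval, and replicate 2 minus replicate 1 as circles, grey in control and green in BMP6. Every interval crosses 0 and stays inside the dotted lines that mark 2-fold, and the circles lie on the same side of 0 for all 10 genes, with Igfbp5 in BMP6 at 0.00.

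The replicate number separated the libraries more than the treatment did. In 9 of the 10 genes the 2 libraries of replicate 2 did not overlap those of replicate 1, 3 of them higher in replicate 2 (Igf1, Igfbp2, Igfbp5) and 6 lower (Igf2, Igf1r, Igfbp3, Igfbp4, Igfbp6, Igfbp7). This compares with 55.2% of all tested entries. In the same number, 9 of 10, the mean difference between replicates was larger than that between BMP6 and control, as in 64.2% of tested entries. Igf2r was the exception to both counts. Other measures moved with the replicate number: Scx, a tendon marker, lay at 19.3 and 17.9 TPM in replicate 1 and at 67.2 and 82.7 TPM in replicate 2 (control, then BMP6), while Tnmd, the other tendon gene with an entry, did not exceed 0.023 TPM. The 6 fibroblast genes summed to 403 and 406 TPM in replicate 1 and to 330.2 and 291 TPM in replicate 2. Of the myogenic genes, Myf5 was lower in replicate 2 (121 and 111 TPM against 171 and 162 TPM in replicate 1), Pax7 was higher (10.7 and 11.7 TPM against 8.29 and 9.92 TPM), as was Myog (5472 and 5001 TPM against 4452 and 4400 TPM), and Myod1 overlapped. The part of these in the replicate difference of the IGF genes was not tested.

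Whole-gene TPM averages coverage over all annotated bases of a transcript, including long last exons. Levels were therefore also taken from internal exons that are coding, scaled to TPM. This comparison was chosen after the data were seen. Over 9389 entries with such exons, the median ratio of this level to TPM was 1.21. For 3 of the 10 genes the ratio lay far from that: Igf1 at 4.94 (above 99.03% of entries), Igf2 at 4.03 (above 98.2%) and Igfbp5 at 0.212 (above only 0.671%). Igf2r stood at 0.583 (above 3.08%), and the other 6 genes at 1.03 (Igfbp3) to 1.76 (Igfbp7).

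For both ligands the coding exons ran high and the last exon low. Igf1 coding exons stood at 56.4 and 63.2 in control and at 46.9 and 54.3 with BMP6 on the TPM scale, and its last exon of 6368 bases at 6.34 to 7.19. The coding exons of Igf2 reached 789 and 467 in control and 718 and 527 with BMP6, against 86.2 to 140 in its last exon of 3287 bases. By this measure both BMP6 libraries of Igf1 lay below both controls, and the log2 difference, for which no test was made, was -0.24, against -0.11 for whole-gene TPM. Of the 10 genes, Igf1 was the single one below and Igf2r the single one above, where 11.9% and 15.6% of the entries with such exons lay below and above. In each library the coding exons exceeded the last exon 7.40- to 9.72-fold for Igf1 and 5.41- to 5.67-fold for Igf2.

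Igfbp5 showed the reverse. Its coding exons had 31.9 and 17.8 in control and 24.1 and 16.1 with BMP6, whereas its last exon of 4577 bases had 108 and 149 in control and 129 and 133 with BMP6. The replicate difference turned with the measure: by TPM, replicate 2 had 131% of the replicate 1 level in control and 100.0% with BMP6, but by coding exons it had 55.8% and 66.9%. By coding exons, then, 7 of the 10 genes were lower in replicate 2 without overlap, 1 was higher (Igfbp2) and 2 overlapped (Igf1 and Igf2r). The matching share over all entries with such exons was not calculated, so these counts are only a description.

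**Figure D3:**
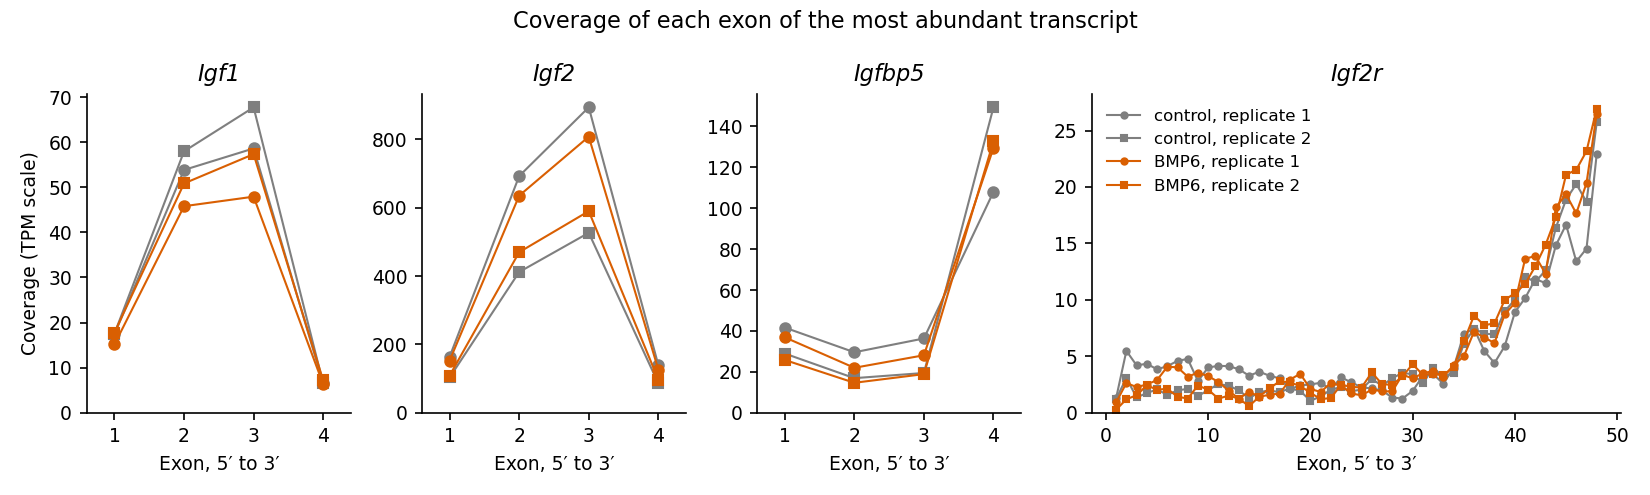
Coverage on the TPM scale of each exon, from 5′ to 3′, of the most abundant transcript of Igf1, Igf2, Igfbp5 and Igf2r, with 1 line per library (grey control, orange BMP6, circles replicate 1, squares replicate 2). The internal exons of Igf1 and Igf2 stand above their last exons, that of Igfbp5 is exceeded by its last exon in every library, and coverage of Igf2r climbs over the 3′ part of its 48 exons to 22.9 to 26.9 in the last.

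The order of the genes depended on this choice. By coding exons Igf2 came first with a mean of 625, separated in every library from Igfbp2 (158), Igfbp3 (137) and Igfbp7 (127), which overlapped each other in that order. Igf1 (55.2) moved above Igfbp6 (39.0), and Igfbp5 (22.5) moved from the fourth place to the seventh. Igf2r (5.29), Igfbp4 (3.13) and Igf1r (2.27) kept the last 3 places, with the ranges of the latter 2 overlapping. The excess of Igf2 over Igf1 was 7.39- to 15.3-fold by coding exons. By both measures Igf2r exceeded Igf1r in every library, 1.95- to 2.94-fold by coding exons.

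**Figure D4:**
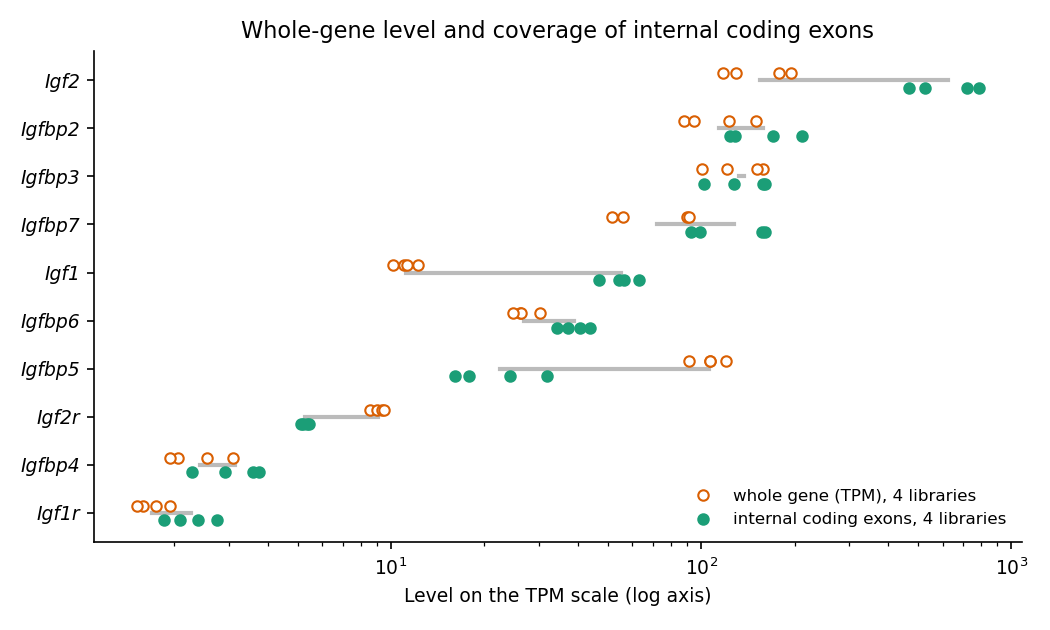
Level of each IGF system gene from the whole gene (open orange circles, TPM) and from its internal coding exons (filled green circles, coverage scaled to TPM) in the 4 libraries, on a log axis, with a grey bar between the 2 means. The long bars belong to Igf1 and Igf2, whose coding exons lie to the right of TPM, and to Igfbp5, whose coding exons lie to the left.

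The rest of the pathway was read from 4 lists of 44 genes in all, of which 30 were tested. None passed an adjusted p under 0.1 in either direction (limma, Benjamini-Hochberg), and 2 of 30 had an unadjusted p under 0.05, beside 3.2% of all tested entries. With the replicate block none passed the adjusted p and 5 of 30 had an unadjusted p under 0.05, beside 12.9% of entries. Of the other IGF and insulin family genes, Insr, the insulin receptor, was the single 1 of 7 tested. It lay at 1.51 and 1.32 TPM in control and at 1.41 and 1.16 TPM with BMP6, a level near that of Igf1r, with a log2 difference of -0.08 (SE 0.15). Igfbp1 and Ins1 were listed at 0 throughout, and the highest values of the rest were 0.189 TPM (Ins2), 0.0719 TPM (Igfals, the acid-labile subunit of the serum IGF complex), 0.0390 TPM (Insrr) and 0.0223 TPM (Igfbpl1).

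Among the proteases of binding proteins and their inhibitors, 4 of 6 were tested, with a median log2 difference of 0.08. Pappa and Pappa2, metalloproteases that cleave IGF binding proteins, stayed at or below 0.0711 and 0.0913 TPM. Their inhibitors were well expressed, Stc1 at 39.1 and 21.5 TPM in control and 37.3 and 26.3 TPM with BMP6 (log2 difference 0.10, SE 0.30) and Stc2 at 9.95 and 8.12 TPM against 8.52 and 7.48 TPM (-0.15, SE 0.15, the largest difference of the list). Htra1, a serine protease, ran at 31.3 and 16.6 TPM against 32.5 and 18.4 TPM. Stc1, Stc2 and Htra1 were thus the higher in replicate 1, as were Igf2, Igf1r, Igfbp3, Igfbp4, Igfbp6 and Igfbp7, while Adam12 overlapped. Igf1, Igfbp2 and Igfbp5 went the other way. The replicates did not overlap in 55.2% of all tested entries, so a shared side is only a description. Of the IGF2 mRNA binding proteins, Igf2bp2 was at 5.78 and 6.79 TPM in control and 6.14 and 8.26 TPM with BMP6 (log2 difference 0.16, SE 0.18), while Igf2bp1 and Igf2bp3, known from fetal tissue, did not exceed 0.128 and 0.0945 TPM.

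Downstream of the receptor, 24 of 28 genes were tested, with a median log2 difference of 0.04 and a range from -0.70 to 0.34. The most abundant were Eif4ebp1, a translation repressor that mTOR inactivates, at 342 to 423 TPM, Grb10, an adaptor that restrains the receptor, at 286 to 396 TPM, and Rheb, the GTPase that activates mTOR, at 274.7 to 304 TPM. Akt1, the central kinase of the pathway, had the largest difference, -0.70 (SE 0.44; limma, adjusted p = 1.00), but it rested on 1 library: the controls had 212 and 254 TPM, and BMP6 replicates 1 and 2 had 84.8 and 238 TPM. Without BMP6 replicate 1 the Akt1 difference was 0.04, and without BMP6 replicate 2 it became -1.44 with an adjusted p of 0.00718 (limma; 0.00718 to 1.00 over all alternatives). In 3 tested genes the level lay higher in both BMP6 libraries than in both controls: Gsk3b, a kinase that Akt inhibits, at 36.4 and 40.4 against 48.8 and 49.0 TPM (0.34, SE 0.10; limma, adjusted p = 1.00, and 0.101 with the block), Grb10 (0.27, SE 0.11), and Foxo1, a transcription factor that Akt inactivates (0.25, SE 0.16). That is 3 of 24, beside the 16.6% of all entries. Of the untested genes, Pik3cb reached 0.819 TPM and Foxo4 0.318 TPM, and Rptor was the name of no entry.

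The genes nearest in pattern to Igfbp6, whose difference was the largest at a pseudocount of 1 only narrowly, were sought by the distance between profiles of log2(TPM + 1) centred on the mean of the 4 libraries. Lrch4 (distance 0.0039), Actn2 (0.0096) and Gm12091 (0.010) came closest of the tested entries that carry a gene symbol. The distances rest on 4 libraries and are given as a description.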

How the data were processed

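Per the labels and the study's methods, unstranded Smart-seq2 libraries without molecular identifiers were mapped by the authors with STAR 2.7.11a to GRCm39 and assembled with StringTie 2.2.1 against a merged GENCODE annotation, with the correction for multi-mapping reads switched off. The authors deposited TPM and FPKM values per gene, and coverage (a signal per base) for each transcript and exon, which was scaled here to TPM. Library sizes were recalculated from coverage at 100 bases a read.

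BMP6 and control were compared with limma 3.58.1 (R 4.3.3; lmFit and eBayes with trend, two-sided) on log2(TPM + 1), over 13128 entries with a mean of at least 1 TPM, with Benjamini-Hochberg adjustment and no block. Calls needed an adjusted p under 0.1 and, where stated, a fold of at least 2 or at most 0.5, thresholds also used by the study. Fold changes on this scale understate changes of low genes. The labels give replicate numbers as batches, and deviations from group means of same-numbered libraries correlated at 0.563 across genes. The labels do not say whether replicates came from separate animals, so p-values may measure only the spread between these libraries. The script was tested on simulated data. All 10 members were named, and of each pathway list the member with the largest difference, the 3 most abundant and the untested ones (Gsk3b and Foxo1 were added after their values were seen). Some listed genes are not reported here. Members and lists were chosen with earlier results of these data known. Internal coding exons were those at least 90% coding in GENCODE M39, in transcripts carrying at least 90% of an entry's TPM. Transcripts were searched with BLAST+ 2.17.0 for stretches of at least 100 bases at 95% identity in other genes: none joined 2 members. Igfbp4 shared up to 181 bases with 11 other genes, and Igfbp3 shared 120 bases with Gm73927. Igfbp7 had such stretches in Polr2b (433 bases, its longest), Ggnbp1 and Gm68935, and Igf2 in Gm49394 (3601 bases, its longest) and Gm33148. Igf1r shared 1247 bases with a transcript of Pgpep1l, at most 0.160 TPM here. Settings varied are given in the closing section. The list of transcripts covered end to end was not used here.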

Additional observations from a re-analysis of the deposited data

How the results depend on the processing

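The count of IGF system genes past the thresholds stayed at 0 under every alternative: quantile or upper quartile scaling, FPKM in place of TPM, voom on recalculated reads with or without the replicate block, a pseudocount of 0.1 or 5, no filter or a mean of at least 5 TPM (which leaves Igf1r and Igfbp4 untested), the replicate block, no trend, an adjusted p under 0.05, and leaving out each library. The lowest adjusted p of any of the 10 genes in these was 0.523.

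The direction held for 8 of the 10 genes outside the fits that leave out a library. Igf2 turned to -0.0142 with quantile scaling, -0.0148 with upper quartile scaling, -0.0069 under voom with the replicate block and -0.0189 with FPKM. Igfbp5 turned to -0.0071 with quantile scaling, -0.001 with FPKM and -0.26 by coding exons. The cause was not tested. With each library left out in turn, 3 genes kept their direction (Igf1, Igf2r, Igfbp6), and the differences ran from -0.35 to 0.37 for Igf2, -0.087 to 0.14 for Igf1r, -0.47 to 0.29 for Igfbp2, -0.22 to 0.43 for Igfbp3, -0.34 to 0.079 for Igfbp4, -0.17 to 0.22 for Igfbp5 and -0.45 to 0.36 for Igfbp7. The lone library of a group is there assumed to vary like the other group. The count of pathway genes past the adjusted p moved from 0 to 1 under voom with the replicate block (Gsk3b, adjusted p = 0.0553) and from 0 to 1 with libraries left out (Akt1, without BMP6 replicate 2). The replicate block in the TPM fit changed no call among the 10 genes or the pathway genes. The number of neighbours told apart in the order of levels was 6, 5 with FPKM, and 6 by coding exons.

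Over all entries, 27 were called, all higher, with 41 higher and 2 lower under the replicate block, 64 and 7 under voom with the block, 14 without the trend, 16 with a pseudocount of 5 or a mean of at least 5 TPM, and 2 without a filter. Igf1r and Igfbp4 lay at 1.51 to 3.10 TPM, where the pseudocount shrinks differences: that of Igfbp4 was -0.18 with a pseudocount of 0.1, -0.13 with 1 and -0.06 with 5, and -0.20 under voom without the block. The difference of Igf1 by coding exons was -0.24.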
